A study of Mus musculus with 11 samples.

Results

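The genes described here are 10 early-response genes around the serum response factor and the EGR proteins, Egr1, Egr2, Egr3, Nab1, Nab2, Ier2, Ier5, Srf, Csrnp1 and Ets2. They were chosen by name: a probe set was taken if the platform annotation gives it exactly 1 of these symbols, and all 10 genes were found, each by 1 probe set, among the 18755 genes tested. These genes and the related lists below were chosen with earlier results of these data known. Their counts beside the shares of all genes are therefore a description only. The cells were bone marrow-derived macrophages of C57Bl/6 wild-type mice, cultured over 1 week with mCSF (macrophage colony-stimulating factor) at 5 ng/ml, then replated and used 24 hours later. Transcripts were measured with Affymetrix whole-transcript arrays in 4 samples given LPS (lipopolysaccharide from the outer membrane of bacteria) at 100 ng/ml plus 10 µM prostaglandin E (PGE) for 1 hour, in 3 given the same dose of LPS alone for 1 hour, and in 4 left untreated. A 12th array, of LPS alone, was dropped by the authors. PGE without LPS was not analysed here, and which prostaglandin E was given is not stated. The labels do not say whether replicates came from separate mice or cultures, so p-values measure only the spread between these samples, which may be technical.

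Immediate-early genes are transcribed within minutes of a stimulus from factors already present in the cell. Serum response factor (SRF) binds a short DNA element called the CArG box, and the partner proteins it recruits, some of them ETS factors activated by the kinase ERK, set when its target genes are read. EGR proteins are zinc finger factors made early in this response, and NAB1 and NAB2 are co-repressors that bind EGR proteins and limit what they switch on. In macrophages LPS reaches ERK through Toll-like receptor signalling, while some receptors for prostaglandin E raise cyclic AMP, a second route into many of the same genes.

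All 9 measured macrophage markers, among them Csf1r, Adgre1 and Cd68, lay above the median of all probe sets on every array. Of the markers of other cells, those above the median on every array were S100a8 (1 of 7 measured neutrophil markers), Itgax, H2-Ab1 and Ccr7 (3 of 7 for dendritic cells), Cd79b (1 of 4 for B cells), Cd4 (1 of 7 for T and NK cells), Kit (1 of 4 for mast cells) and Col1a1 (1 of 6 for stroma). The summed linear level of the macrophage markers was 38751 to 40209 on LPS plus PGE arrays and 36280 to 38584 on LPS arrays, against 34778 to 36182 on untreated arrays. Of these 9, Cd14, the LPS co-receptor gene, alone changed in the deposited values (1.64 ± 0.06 with LPS and 2.22 ± 0.06 with LPS plus PGE on the log2 scale), and the other 8 did not pass in any comparison. The sum includes Cd14, while with LPS the changes of the other 8 lay between -0.13 and -0.00086. With equal array medians 4 of the 9 were higher in LPS plus PGE than in LPS. After quantile normalization 1 of the 9 was lower in LPS plus PGE than in untreated cells, and after cyclic loess normalization 1 was lower than in LPS. For the 4 mast cell markers the summed linear level was 82.9 to 94.7 on LPS plus PGE arrays and 86.6 to 101 on LPS arrays, against 77.0 to 85.6 on untreated arrays. None of these 4 passed in any comparison of the deposited values. With equal array medians 2 were higher in LPS plus PGE than in untreated cells. The group means of Cpa3, Mcpt4 and Fcer1a were low, at 2.43 to 3.91. Against untreated cells, LPS plus PGE raised 3 dendritic cell markers (H2-Ab1, Ccr7 and Zbtb46, the last lost after quantile and cyclic loess normalization) and the stroma marker Pdgfrb (lost after quantile normalization), and lowered the NK marker Klrb1c (-0.68 ± 0.17). LPS raised the neutrophil marker Cxcr2 (0.44 ± 0.09) and lowered the stroma marker Col3a1 (-0.25 ± 0.07). Between LPS plus PGE and LPS, Ccr7 (0.66 ± 0.17) and Col3a1 (0.44 ± 0.07) were higher and Klrb1c (-0.98 ± 0.18) and Cxcr2 (-0.45 ± 0.09) lower, while Pdgfrb and the B cell marker Pax5 were higher in calls lost after quantile and cyclic loess normalization. The part of these markers in the results was not tested. The group means of Cxcr2, Klrb1c, Pdgfrb, Zbtb46 and Pax5 ran from 3.72 to 4.96. All lay below every array median (5.03 to 5.18), as did Col3a1 in LPS (4.99), so these were changes of low signals. Correlations between arrays, computed over genes, were 0.996 to 0.998 within groups and 0.980 to 0.993 across them. The number of arrays limits the precision. In such bulk samples, fewer cells of a type and less RNA per cell cannot be told apart.

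LPS for 1 hour raised 8 of the 10 genes and lowered none, led by Egr1 and Csrnp1. Over all genes, 13.2% were called, 6.55% with a higher level and 6.69% with a lower one. In 7 of the 10 the rise was at least 2-fold, against 1.57% of all genes, and in 9 all LPS arrays lay above all untreated ones, against 10.5%. The median change was 2.36 on the log2 scale for the 10 genes and -0.01 for all genes. Under LPS plus PGE, 9 of the 10 were higher than in untreated cells and none was lower, against 13.8% and 17.9% of all genes (31.7% called in all), with a median change of 2.42 for the 10 and 0.02 for all. The rise was at least 2-fold in 7 (1.86% of all genes), and in 9 the arrays lay above all untreated ones (13.7%). Between LPS plus PGE and LPS alone, Ets2, Csrnp1 and Srf were higher and Egr2 was lower, while the other 6 did not pass. The background for that comparison was 24.7% of all genes called, 11.9% higher and 12.9% lower. Arrays did not overlap for 3 of the 10 in the upward direction (15.5% of all genes) and for 1 in the downward direction (18.3%), none of the 10 was 2-fold higher (0.565% of all genes), and the 10 genes as a group did not lean one way (median 0.03, all genes 0.00). Once every array was set to 1 common median, the all-gene median became 0.14 for LPS plus PGE against untreated and 0.15 for LPS plus PGE against LPS. The share of all calls that were higher then moved to 76.9% (43.5% as deposited) in the first of these and to 89.1% (47.9% as deposited) in the second. All calls on the 10 genes were kept under that centring, and Ier2 was called in addition. Levels are the deposited log2 values, on which 1 unit stands for a 2-fold change. Changes are limma estimates ± SE over all 11 arrays, and calls were made where p, adjusted over all genes by Benjamini-Hochberg, was under 0.05.

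**Figure D1:**
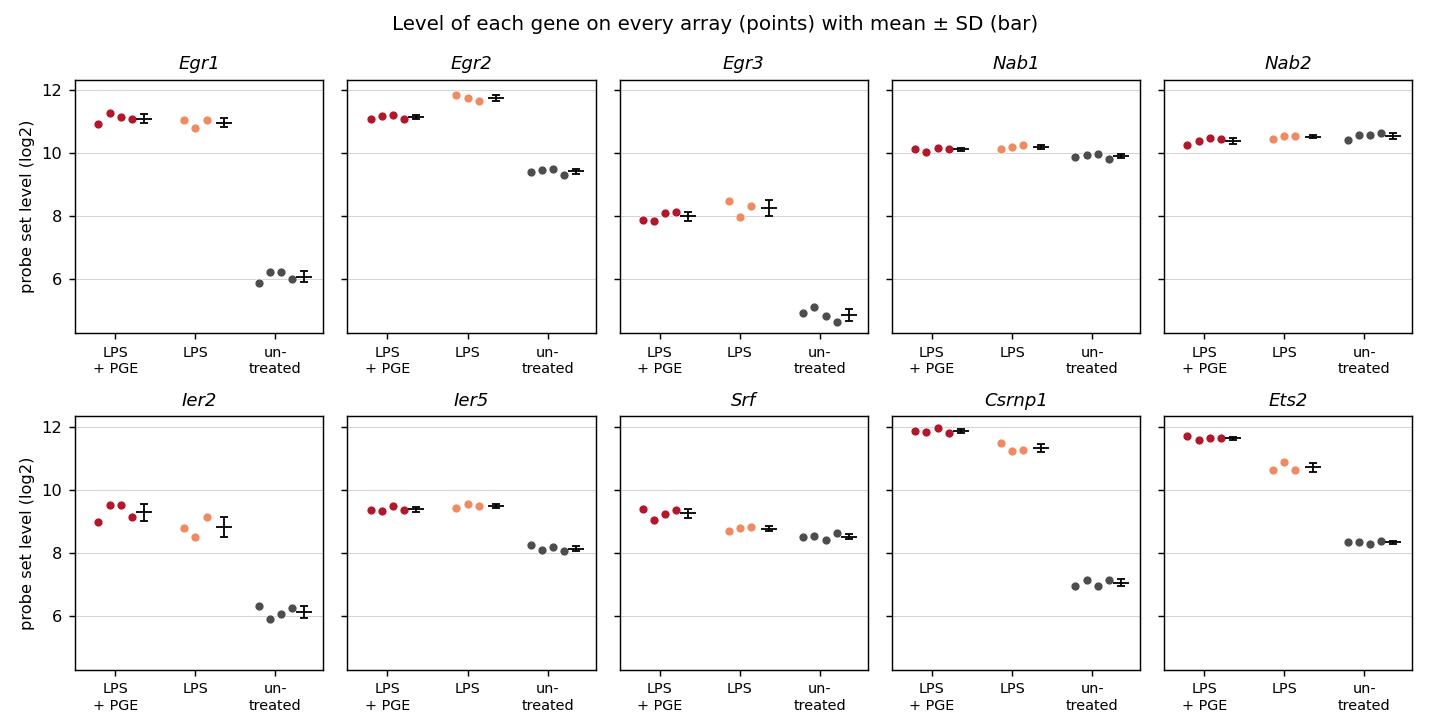
Log2 probe set level of the 10 genes on each array (points) in LPS plus PGE (n = 4), LPS (n = 3) and untreated (n = 4) cells, with mean ± SD beside the points. Egr1, Csrnp1, Egr3 and Ier2 sit far above their untreated arrays in both treatments, Srf stands apart in LPS plus PGE, and Nab1 and Nab2 stay within a narrow band.

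Srf encodes the CArG-binding factor itself. Its level was 9.40, 9.06, 9.24 and 9.36 on the 4 LPS plus PGE arrays, 8.70, 8.80 and 8.83 on the 3 LPS arrays and 8.51, 8.54, 8.43 and 8.63 on the 4 untreated arrays. No array of one group overlapped those of another, but the LPS and untreated arrays nearly met. LPS plus PGE exceeded LPS by 0.49 ± 0.08 (1.4-fold, limma adjusted p = 0.00251) and untreated by 0.74 ± 0.08 (1.67-fold, limma adjusted p = 2.08e-05). The difference between LPS and untreated, 0.25 ± 0.08, did not pass (limma adjusted p = 0.0749, 95% interval 0.07 to 0.44). That call was gained with a trended and robust variance (limma adjusted p = 0.0248), with the dimmest genes left out (those with a mean level under 4.31, 0.045) and without LPS plus PGE replicate 2 (0.041).

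The RefSeq promoter of Srf is shown because it holds the elements that SRF, EGR and ETS proteins are known to bind. The stretch is the 250 bases before the transcript start, on the minus strand at chr17:46556163-46556412 in GRCm38.p6, written 5′ to 3′. From left to right the capitals mark an ETS site (CCGGAAG), an EGR site (GCGNGGGCG) and a pair of CArG boxes (CC, 6 letters that are A or T, GG).
Srf: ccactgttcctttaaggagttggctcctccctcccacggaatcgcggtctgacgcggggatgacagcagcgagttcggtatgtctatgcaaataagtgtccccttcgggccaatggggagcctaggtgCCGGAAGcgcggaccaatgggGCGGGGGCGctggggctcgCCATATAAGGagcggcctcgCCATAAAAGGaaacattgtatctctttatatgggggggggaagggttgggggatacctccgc
The matches begin 122, 101, 82 and 62 bases before the start, and none overlaps another. Of 32841 RefSeq windows of 300 bases (250 before to 50 after a start, both strands searched), 1.63% held a CArG box, 5.55% the EGR site and 8.86% the ETS site. A match is a description of the letters, and binding was not measured here.

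Ets2 encodes an ETS factor whose activity ERK phosphorylation increases, and of the 10 genes it showed the largest difference between LPS plus PGE and LPS. It had 11.71, 11.59, 11.66 and 11.64 in LPS plus PGE, 10.65, 10.89 and 10.63 in LPS and 8.37, 8.34, 8.28 and 8.37 in untreated cells. The 3 groups formed steps that did not overlap, each wider than the spread inside a group. Ets2 rose by 2.38 ± 0.07 with LPS (5.22-fold, limma adjusted p = 2.12e-10) and by 3.31 ± 0.07 with LPS plus PGE (9.89-fold, limma adjusted p = 2.86e-12). LPS plus PGE stood 0.92 ± 0.07 above LPS alone (1.89-fold, limma adjusted p = 6.56e-06), the 126th largest rise among 18755 genes in that comparison. Its window held none of the 6 motifs searched.

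Egr1, the zinc finger factor most often used as a readout of ERK activity, showed the largest rise of the 10 genes. The arrays read 10.93, 11.27, 11.15 and 11.08 in LPS plus PGE, 11.06, 10.81 and 11.06 in LPS and 5.87, 6.23, 6.25 and 6.01 in untreated cells. Both treated groups lay far above the untreated arrays and overlapped each other. The rise was 4.89 ± 0.11 with LPS (29.5-fold, limma adjusted p = 1.91e-11), the 17th largest of all genes, and 5.02 ± 0.10 with LPS plus PGE (32.3-fold, limma adjusted p = 3.2e-12), the 26th. The treatments differed by 0.13 ± 0.11, with a 95% interval of -0.11 to 0.37 (limma adjusted p = 0.4), so a difference of more than 0.37 upward or 0.11 downward lay outside that interval. That interval holds for the deposited scaling only. The difference was 0.29 with equal array medians (limma adjusted p = 0.0704) and 0.24 after cyclic loess normalization (limma adjusted p = 0.169).

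Egr2, also called Krox20, encodes a factor with DNA-binding fingers much like those of Egr1, and was lower with PGE. It read 11.10, 11.19, 11.23 and 11.09 in LPS plus PGE, 11.84, 11.78 and 11.66 in LPS and 9.42, 9.46, 9.50 and 9.33 in untreated cells. The highest LPS plus PGE array lay below the lowest LPS array, and the lowest LPS plus PGE array lay above every untreated one. LPS raised Egr2 by 2.33 ± 0.07 (5.02-fold, limma adjusted p = 2.03e-10) and LPS plus PGE raised it by 1.72 ± 0.06 (3.3-fold, limma adjusted p = 1.04e-09). The level in LPS plus PGE was 1.52-fold lower than in LPS alone (-0.61 ± 0.07, limma adjusted p = 0.000163). RefSeq lists 5 starts for Egr2, and the windows of 4 of them hold a CArG box, at 2 distinct places. They are shown, with 10 bases on each side and the box in capitals, to set beside the boxes of Srf.
Egr2 upstream box, chr10:67537484-67537513, plus strand: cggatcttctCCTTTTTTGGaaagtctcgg
Egr2 downstream box, chr10:67537787-67537816, plus strand: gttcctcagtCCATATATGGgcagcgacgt
The window of the remaining start held a pair of NF-kB site matches that overlap each other, a motif found in 8.46% of windows.

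Egr3 encodes another EGR zinc finger factor and showed the third largest rise of the 10 genes with LPS. Levels were 7.88, 7.86, 8.12 and 8.14 in LPS plus PGE, 8.48, 8.0 and 8.32 in LPS and 4.92, 5.12, 4.84 and 4.67 in untreated cells. The treated groups overlapped each other, with LPS replicate 2 inside the LPS plus PGE range, and neither reached the untreated arrays. The untreated levels were low signals, below the medians of the untreated arrays (5.13 to 5.18). Egr3 rose by 3.38 ± 0.13 with LPS (10.4-fold, limma adjusted p = 2.71e-09) and by 3.11 ± 0.12 with LPS plus PGE (8.66-fold, limma adjusted p = 1.92e-09). The difference between the treatments was -0.26 ± 0.13 and did not pass (limma adjusted p = 0.154, 95% interval -0.55 to 0.02). Without LPS replicate 2 it was -0.40 and passed (limma adjusted p = 0.0469).

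**Figure D2:**
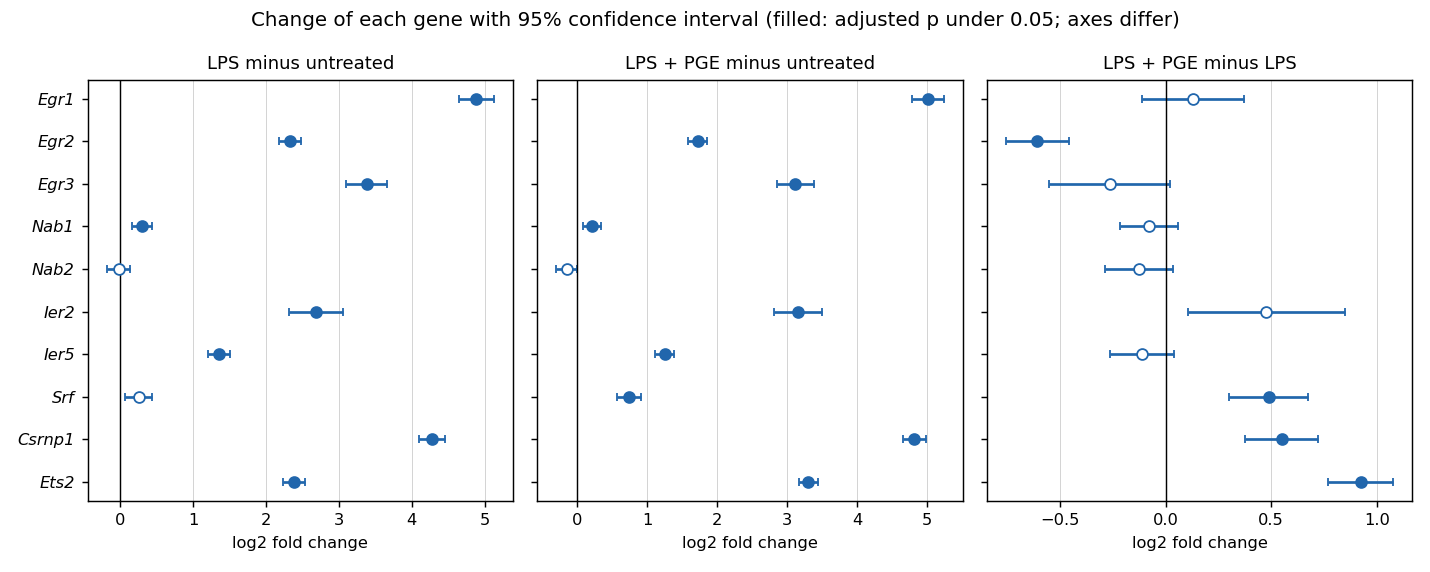
Log2 fold changes of the 10 genes (points) with 95% confidence intervals for LPS minus untreated, LPS plus PGE minus untreated and LPS plus PGE minus LPS; filled points passed an adjusted p of 0.05, and the horizontal scales differ. Egr1 changed by 4.89 and 5.02 against untreated and Nab2 by -0.03 and -0.15, while in the right panel Ets2, Csrnp1 and Srf lie above 0 and Egr2 below it.

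Differences in response between the 3 EGR genes were tested on the difference of their log2 levels on each array, with an exact two-sided permutation test over arrays. The rise of Egr1 exceeded that of Egr2 by 2.56 with LPS (p = 0.0571, exact) and by 3.29 with LPS plus PGE (p = 0.0286, exact). For Egr3 the rise was 1.51 smaller than that of Egr1 with LPS and 1.90 smaller with LPS plus PGE, at the same exact p-values. The difference between LPS plus PGE and LPS was 0.74 lower for Egr2 than for Egr1 (p = 0.0571, exact). With 3 arrays against 4, 0.0571 is the smallest p this test can give, and with 4 against 4 it is 0.0286. Over the 15 differences computed for 5 pairs of genes, each of these had an adjusted p of 0.0659. The smallest adjusted p these 15 tests can give is 0.0571, so no difference could pass after correction, whatever its size.

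The co-repressor genes moved little. Nab1 read 10.14, 10.05, 10.18 and 10.15 in LPS plus PGE, 10.14, 10.22 and 10.27 in LPS and 9.89, 9.94, 10.00 and 9.84 in untreated cells, with both treated groups just above the untreated arrays. It rose by 0.29 ± 0.06 with LPS (1.22-fold, limma adjusted p = 0.0088) and by 0.21 ± 0.06 with LPS plus PGE (1.16-fold, limma adjusted p = 0.0167). The second call was lost without untreated replicate 4 (limma adjusted p = 0.0528). The treatments differed by -0.08 ± 0.06 (limma adjusted p = 0.374, 95% interval -0.22 to 0.06), and by 0.08 with equal array medians. Its promoter is shown because it held 3 EGR sites, the element bound by the proteins that NAB1 restrains. The stretch is the 250 bases before its start, on the minus strand at chr1:52500449-52500698 in GRCm38.p6, with the EGR sites in capitals, the first of them read on the opposite strand.
Nab1: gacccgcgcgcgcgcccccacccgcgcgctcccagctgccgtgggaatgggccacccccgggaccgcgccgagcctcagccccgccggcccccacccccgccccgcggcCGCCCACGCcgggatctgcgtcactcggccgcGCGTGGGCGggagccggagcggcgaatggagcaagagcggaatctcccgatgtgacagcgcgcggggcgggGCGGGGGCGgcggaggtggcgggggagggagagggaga
They begin 141, 109 and 38 bases before the start, and a match to the NF-kB site begins 71 bases before it.

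Nab2 is known in other settings as a gene that EGR proteins switch on. Its levels were 10.27, 10.40, 10.48 and 10.47 in LPS plus PGE, 10.47, 10.56 and 10.57 in LPS and 10.42, 10.58, 10.60 and 10.63 in untreated cells, and all 3 groups overlapped. The change was -0.03 ± 0.07 with LPS (limma adjusted p = 0.869), with a 95% interval of -0.19 to 0.13. With LPS plus PGE it was -0.15 ± 0.07 against untreated (limma adjusted p = 0.105, 95% interval -0.30 to -0.0044) and -0.13 ± 0.07 against LPS (limma adjusted p = 0.22), the difference from LPS turning to 0.03 with equal array medians. The difference from untreated passed as a fall with a trended and robust variance (0.0391) and without untreated replicate 1 (0.0477). Compared on the same arrays, the change of Nab2 was 0.32 lower than that of Nab1 with LPS (p = 0.0571, exact permutation) and 0.36 lower with LPS plus PGE (p = 0.0286, exact permutation), each with an adjusted p of 0.0659 over the 15 differences. The Nab2 window held none of the motifs.

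Of the remaining early genes, Csrnp1, which encodes a nuclear protein first described as induced by axin, responded most. It had 11.89, 11.85, 11.97 and 11.82 in LPS plus PGE, 11.48, 11.25 and 11.27 in LPS and 6.97, 7.16, 6.96 and 7.15 in untreated cells. As for Ets2, the groups formed 3 separate steps. The rise was 4.27 ± 0.08 with LPS (19.3-fold, limma adjusted p = 5.35e-12), the 23rd largest of all genes, and 4.82 ± 0.07 with LPS plus PGE (28.3-fold, limma adjusted p = 5.09e-13), the 30th. LPS plus PGE lay 0.55 ± 0.08 above LPS (1.46-fold, limma adjusted p = 0.000923). Of its 4 listed starts, 1 had AP-1 site matches (TGANTCA), which begin 102 and 14 bases before that start, a motif held by 7.81% of windows.

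Ier2 encodes a small nuclear protein of the immediate-early response. On the arrays it read 8.99, 9.51, 9.53 and 9.15 in LPS plus PGE, 8.80, 8.52 and 9.14 in LPS and 6.33, 5.90, 6.06 and 6.26 in untreated cells. The spread inside the treated groups was the widest of the 10 genes, with an SD of 0.27 in LPS plus PGE and 0.31 in LPS, and the treated groups overlapped. Ier2 rose by 2.68 ± 0.17 with LPS (6.42-fold, limma adjusted p = 2.95e-07) and by 3.16 ± 0.16 with LPS plus PGE (8.94-fold, limma adjusted p = 1.99e-08). The treatments differed by 0.48 ± 0.17, just short of the threshold (limma adjusted p = 0.0587, 95% interval 0.11 to 0.85). That difference passed after quantile normalization (0.56, 0.0414), with equal array medians (0.64, 0.00792), after cyclic loess normalization (0.64, 0.0197) and with the dimmest genes left out (0.48, 0.0496), where the second number is the limma adjusted p. It also passed without LPS replicate 3 (0.0313) or LPS plus PGE replicate 1 (0.0401).

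Ier5, an early gene whose protein takes part in the heat shock response, had 9.38, 9.34, 9.50 and 9.36 in LPS plus PGE, 9.44, 9.56 and 9.51 in LPS and 8.25, 8.09, 8.19 and 8.05 in untreated cells. Both treated groups lay above the untreated arrays and overlapped each other. It rose by 1.36 ± 0.07 with LPS (2.56-fold, limma adjusted p = 4.2e-08) and by 1.25 ± 0.06 with LPS plus PGE (2.37-fold, limma adjusted p = 2.89e-08), and the treatments differed by -0.11 ± 0.07 (limma adjusted p = 0.251, 95% interval -0.26 to 0.04), or by 0.05 with equal array medians and 0.01 after cyclic loess normalization. The rise of Ier5 was 1.33 smaller than that of Ier2 with LPS (p = 0.0571, exact permutation) and 1.91 smaller with LPS plus PGE (p = 0.0286, exact permutation), again with an adjusted p of 0.0659. Its window held none of the motifs.

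**Figure D3:**
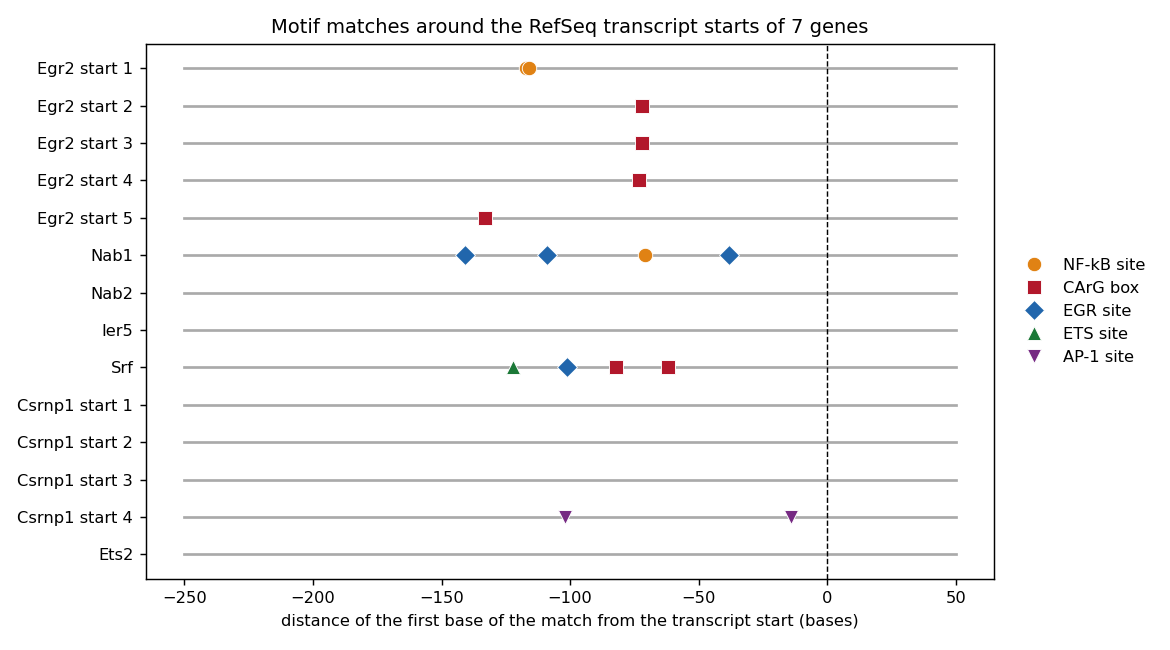
Matches to 5 motifs (symbols) in the window from 250 bases before to 50 bases after each RefSeq transcript start (grey lines) of the 7 genes with an entry. CArG boxes are found in the windows of Srf and Egr2 and EGR sites in those of Nab1 and Srf; the 4 later Egr2 windows show 2 distinct boxes.

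The cyclic AMP response element (TGACGTCA), held by 1.79% of windows, matched in no window of the 7 genes with an entry. That says only that these letters are not in these windows. Egr1, Egr3 and Ier2 have no sequence shown here.

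The mean levels had the same order in 5 of the genes. In Srf, Ets2 and Csrnp1 the mean level was highest in LPS plus PGE, then LPS, then untreated, and in these 3 genes the neighbouring groups differed by more than their spread, except that Srf in LPS was not called against untreated. Ier2 and Egr1 had the same order of means, with their treated groups overlapping. Egr2 was highest in LPS, then LPS plus PGE, then untreated, each step passing the test. For Egr1, Ier2, Egr3, Nab1 and Ier5 the treated groups could not be separated from each other, and for Nab2 no group could.

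Each gene was also set beside all others by the root mean square difference over the 11 arrays, after subtracting each gene's own untreated mean, in log2 units. This is a description of likeness in these arrays. The nearest genes to Egr1 were Acod1 (0.34), which encodes the itaconate-producing enzyme, the phosphatase gene Dusp5 (0.35) and Csrnp1 (0.37). Nearest to Csrnp1 were Tnfaip3 (0.30), an inhibitor of NF-kB signalling, and the phosphatase genes Dusp2 (0.31) and Dusp5 (0.32). Egr2 lay closest to the kinase gene Plk2 (0.08), the transcriptional repressor gene Prdm1 (0.13) and the interferon regulatory factor gene Irf1 (0.18). Egr3 was followed by Nfkbia (0.22), Mir221 (0.28) and Ppp1r15a (0.29). Ier2 lay closest to the AP-1 gene Fos (0.16), then Trib1 (0.21) and Nfkbid (0.22). For Ets2 the nearest were Pvr (0.13), Ednrb (0.22) and Fos (0.24). Srf was nearest to Plekhg2 (0.07), Paf1 (0.08) and Cyth1 (0.08), and Ier5 to Cd274 (0.09), Snx18 (0.10) and Ccnl1 (0.12). The small changes of Nab1 and Nab2 placed them within 0.07 and 0.04 of their 3 nearest genes, Rc3h1, Trerf1 and Arhgap31 for Nab1 and Prkcd, Mknk1 and Creld1 for Nab2.

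Most genes on the list taken here as early targets of SRF with ETS partners also rose. Which factors drove them was not tested. Of 17 measured, 15 rose with LPS and none fell, and 14 rose and 1 fell with LPS plus PGE; the list medians were 2.05 and 2.66, against -0.01 and 0.02 for all genes. The orphan receptor gene Nr4a1 rose by 3.88 ± 0.10 with LPS and 5.96 ± 0.09 with LPS plus PGE, and the AP-1 gene Fosb by 3.27 ± 0.12 and 7.21 ± 0.11. Maff, a small Maf factor gene, rose by 3.82 ± 0.13 and 4.14 ± 0.12. Between LPS plus PGE and LPS, 8 of the 17 were higher and 1 was lower (median 0.27), counts that became 11 and 1 with equal array medians. Over all genes, 6.55% rose with LPS and 13.8% with LPS plus PGE, and 11.9% were higher and 12.9% lower between the treatments. Fosb stood 3.94 ± 0.12 higher, Nr4a1 2.07 ± 0.10 and Ier3 1.44 ± 0.12, while the stress factor gene Atf3 was lower (-0.88 ± 0.10, limma adjusted p = 0.000143).

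The cytoskeletal targets of SRF, which it reads with the actin-sensing MRTF partners, mostly did not pass, and neither did most genes at large. Of 16 measured, 2 rose with LPS (Vcl, which encodes the adhesion protein vinculin, by 0.27 ± 0.06 and the tropomyosin gene Tpm1 by 0.23 ± 0.06), 0 with equal array medians. The other 14 did not pass, and the list median was 0.01. With LPS plus PGE Tpm1 rose (0.29 ± 0.06) and 1 of the 16 fell, against 7 rises and 0 falls with equal array medians and 4 and 0 after cyclic loess normalization. Between LPS plus PGE and LPS, 2 were higher and 2 lower, against 6 and 0 with equal array medians, so no direction is given for this list. Over all genes, 13.2% were called with LPS, 31.7% with LPS plus PGE and 24.7% between LPS plus PGE and LPS. As deposited, the counts of this list with LPS and between the treatments lay near those shares. Of 7 measured SRF partner genes, none passed with LPS at an adjusted p of 0.05. With LPS plus PGE 2 were higher and 1 lower than in untreated cells, all by less than 0.38, and these 3 calls were all lost after cyclic loess normalization.

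Among 13 measured genes of the cascade that leads to ERK, Map3k8, which encodes the kinase linking Toll-like receptors to ERK in macrophages, passed alone with LPS (0.86 ± 0.08, limma adjusted p = 7.87e-06) and with LPS plus PGE (0.62 ± 0.07, limma adjusted p = 4.06e-05), where 2 of the 13 rose under each other scaling. Its level was lower in LPS plus PGE than in LPS (-0.24 ± 0.08, limma adjusted p = 0.0393), a call lost under quantile (0.193) and cyclic loess normalization (0.335) and with equal array medians (0.49). The all-gene shares were 6.55% higher with LPS, 13.8% higher with LPS plus PGE and 12.9% lower between LPS plus PGE and LPS.

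Genes with described EGR1 sites were examined as possible downstream targets. Of 14 measured, 9 rose and none fell with LPS, and 8 rose and 2 fell with LPS plus PGE. The list medians were 0.83 and 0.64. With equal array medians the second pair of counts became 11 and 1. The all-gene shares were 6.55% higher with LPS, and 13.8% higher and 17.9% lower with LPS plus PGE. Tnf, an inflammatory cytokine gene, rose by 4.51 ± 0.07 with LPS and 4.18 ± 0.07 with LPS plus PGE, and tissue factor F3 by 3.49 ± 0.15 and 4.09 ± 0.14. Between LPS plus PGE and LPS, 2 were higher and 5 lower, against 11.9% and 12.9% of all genes. These counts became 7 and 2 with equal array medians, and 2 and 3 after quantile or cyclic loess normalization. The angiogenic factor gene Vegfa was higher by 2.20 ± 0.09 and F3 by 0.60 ± 0.15. Gadd45a, a DNA damage response gene, was lower (-1.07 ± 0.10), as was the growth factor gene Pdgfb (-0.77 ± 0.08), and these 4 calls were kept under each of the 3 scalings.

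**Figure D4:**
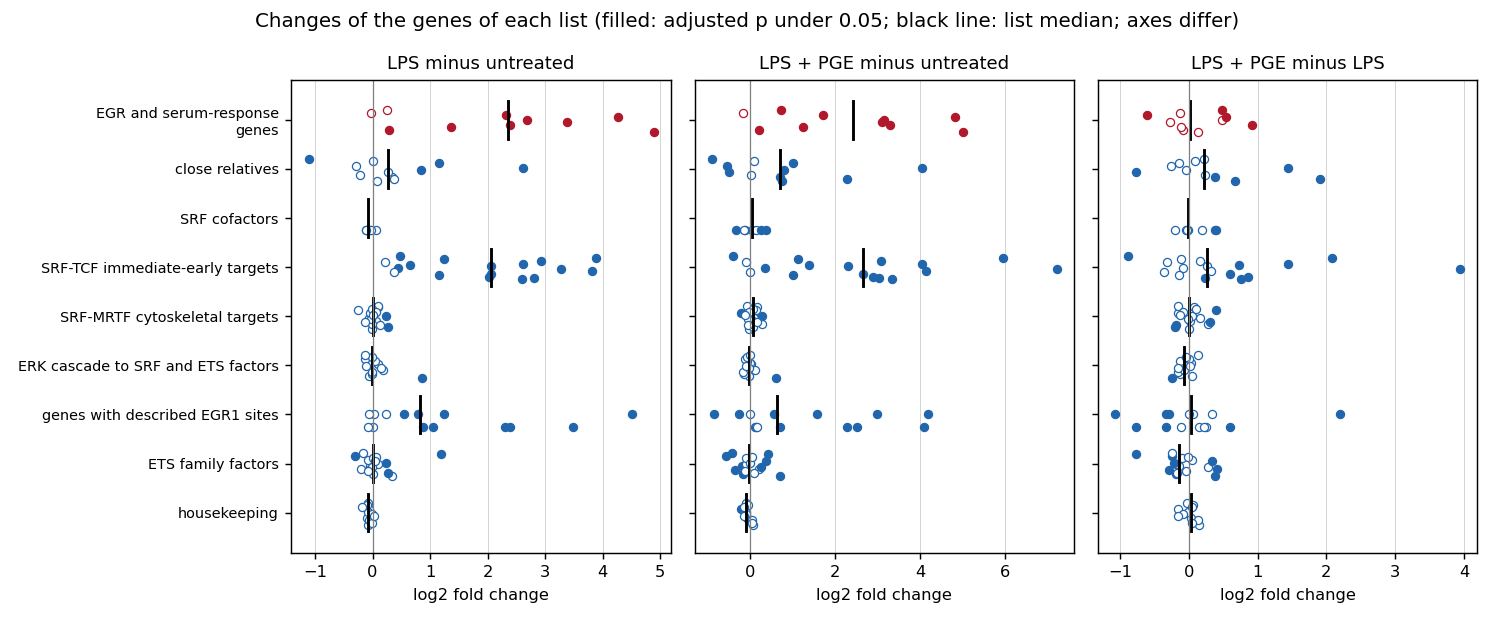
Log2 fold changes of the genes (points) of the 10 EGR and serum-response genes and of 8 related lists in the 3 comparisons; filled points passed an adjusted p of 0.05, black lines are list medians, and the horizontal scales differ. Genes listed as early SRF targets spread to the right with the 10 genes (medians 2.05 and 2.36 with LPS), while those listed as cytoskeletal SRF targets and housekeeping genes stay near 0.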

How the data were processed

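Transcripts were measured in 11 samples on Affymetrix mouse arrays from 250 ng of total RNA each. The deposited values are log2 probe set levels; the submitters' processing notes name RMA, Affymetrix Power Tools, Partek and R 2.13.1, without their roles, and the log2 scale was read from RMA and the range of values (1.20 to 13.81). The sources used here give no genome build for the array annotation. Of 35309 probe sets, 21143 had 1 gene symbol, and the probe set with the highest mean stood for each of 18755 genes. With limma 3.58.1 (R 4.3.3), each group's mean was estimated from the 11 arrays together, with two-sided tests adjusted over all genes by Benjamini-Hochberg; the script was tested on simulated data. Plots used Python 3.11.15 and matplotlib 3.10.9. Promoter windows are RefSeq's for GRCm38.p6, which held 7 of the 10 genes. The members and lists were chosen with earlier results of these data known. Text names all 10 genes, at most 4 passing genes with the largest changes per list and comparison, and the 3 nearest genes to each. Alternatives were other scalings, variance models, filters, probe set choices, a 2-fold threshold, a replicate block and leaving out each array. No array was a duplicate of another.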

Additional observations from a re-analysis of the deposited data

How the results depend on the processing

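Across 30 gene and comparison pairs and 660 alternative fits of them, 639 kept their side of the threshold, 8 lost a call and 13 gained one. The sign turned in 6 fits, all of differences that were not called in either setting (Nab1, Nab2 and Ier5). The number of the 10 genes lower in LPS plus PGE than in untreated cells was 0, and 1 (Nab2) with a trended and robust variance, with replicate number as a block, and at most without 1 array (range 0 to 1). Between LPS plus PGE and LPS the number lower was 1, with a range of 1 to 2 without 1 array, Egr3 being added without LPS replicate 2. At a 2-fold threshold 0 of the 10 were higher and 0 lower in that comparison, and 7 stayed higher in each of the others. The other counts of the 10 genes moved by less than 1.5 times. Over all genes, calls between LPS plus PGE and LPS numbered 4641, but 1899 after quantile normalization, 2173 after cyclic loess normalization, 2945 without LPS replicate 3 and 134 at 2-fold. For LPS plus PGE against untreated they numbered 5946, but 3897 after cyclic loess normalization and 557 at 2-fold, and for LPS against untreated 2483, but 362 at 2-fold. The labels do not say that replicate numbers pair arrays, so the main fit and the permutation tests left them unpaired. Deviations of same-numbered arrays correlated at -0.02 to 0.21, with 7 of 10 above 0.1, against -0.14 to 0.09 and 0 of 30 for arrays of other numbers. Of the 11 arrays, 9 correlated best with their own number. Same-numbered arrays were thus more alike than others, and the unpaired tests do not take that into account. With the replicate block the single changed call was that of Nab2 above (limma adjusted p = 0.0475). The number of arrays limits the precision of changes near 0.3, and changes near 0.5 can also be missed. In the simulated data, changes of 0.5 were called in 59% of genes for LPS against untreated. The share was 72% for LPS plus PGE against untreated and 67% for LPS plus PGE against LPS.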

Other observations

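Relatives of the 10 genes by family or name did not share 1 direction. Of 11 measured, among them Ier3 and Klf6 from the list of early SRF targets, 3 rose and 1 fell with LPS, and 6 rose and 3 fell with LPS plus PGE. With LPS 7 did not pass, and with LPS plus PGE 2 did not. Among all genes, 6.55% rose and 6.69% fell with LPS, and 13.8% rose and 17.9% fell with LPS plus PGE. Ier3, which encodes a stress-inducible survival protein, rose by 2.61 ± 0.12 with LPS and 4.05 ± 0.11 with LPS plus PGE, while Ier5l, a relative of Ier5, fell in both (-1.11 ± 0.16 and -0.89 ± 0.15). Among Krüppel-like factor genes, Klf6 rose by 1.16 ± 0.06 and 1.02 ± 0.06. Klf4 was higher in LPS plus PGE than in LPS (1.90 ± 0.12, limma adjusted p = 1.57e-06) and Klf10 was lower (-0.76 ± 0.10, limma adjusted p = 0.000476). Egr4, the fourth EGR gene, was higher in LPS plus PGE than in LPS (0.67 ± 0.11, limma adjusted p = 0.00166). Its signal was low, with means of 5.29 in LPS plus PGE, 4.62 in LPS and 4.54 in untreated cells. The LPS and untreated means lay below every array median (5.03 to 5.18).

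The other ETS factor genes changed in both directions, as did genes at large. Of 17 measured, 3 rose and 1 fell with LPS, against 2 and 1 after quantile normalization and 1 and 1 with equal array medians. With LPS plus PGE 4 rose and 5 fell, against 2 and 4 after quantile normalization and 5 and 3 with equal array medians. Over all genes, 6.55% rose and 6.69% fell with LPS, and 13.8% rose and 17.9% fell with LPS plus PGE. Etv3, which encodes an ETS repressor, rose by 1.19 ± 0.05 with LPS and by 0.44 ± 0.05 with LPS plus PGE, and was lower in LPS plus PGE than in LPS (-0.76 ± 0.05, limma adjusted p = 4.07e-06). Ets1, the closest relative of Ets2, rose with LPS plus PGE (0.71 ± 0.10, limma adjusted p = 0.000249); with LPS its change was 0.33 ± 0.11 (limma adjusted p = 0.0725). Of 11 housekeeping genes none passed with LPS or between LPS plus PGE and LPS, and 1 fell with LPS plus PGE (Tbp, -0.21 ± 0.06), a call lost under each of the 3 scalings; with equal array medians 5 of the 11 were higher in LPS plus PGE than in LPS.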
